A study of Rattus norvegicus with 15 samples.

Results

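Genes of the choroid plexus and of the ependyma, the epithelia that line the ventricles of the brain, were followed in RNA from the rat nucleus accumbens. The members searched for were Ttr, Kl, Otx2, Aqp1, Slc4a5 and Foxj1. Of these 6 genes, 5 had a probe set named by 1 gene symbol, out of 14497 such genes on the array, and Otx2 was not analysed here. Each of the 5 had 1 such probe set, and each passed the filter on low values that left 11778 genes for testing.

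The study asked how gene expression in the accumbens changes as cocaine craving grows over weeks of abstinence. Male Sprague-Dawley rats pressed a lever for cocaine (0.75 mg/kg per infusion, 6 hours a day for 10 days), and 15 arrays fall into 5 groups of 3. Group 30C had 30 days of withdrawal and then an extinction test. Group 30W had 30 days of withdrawal and no test. Group 1C had 1 day of withdrawal and the test, and group 1W 1 day of withdrawal and no test. The Sal group self-administered saline on the same schedule, and its labels give neither a withdrawal time nor a test. Per the labels, catheters were placed right after a cannula had been implanted, and its site is not given. How many rats stand behind each array is not stated in the labels, so p-values measure only the spread between these samples, which may be technical. Precision is limited by having 3 arrays in each group.

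The choroid plexus is a fold of secretory epithelium inside the ventricles that makes cerebrospinal fluid and loads it with carrier proteins. Ependymal cells form the ciliated sheet that covers the ventricle wall, and their beating cilia move that fluid. The nucleus accumbens itself is a nucleus of medium spiny neurons, and its tissue lies close to the lateral ventricle. In bulk tissue of this kind, fewer cells of a type and less RNA per cell cannot be told apart.

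All values are RMA log2 intensities, on which 1 unit is a doubling. The median of the 28826 probe sets lay between 6.89 and 6.97 on the 15 arrays, and pairs of arrays correlated at 0.9929 to 0.9967. The labelled tissue was checked by medium spiny neuron markers. The dopamine receptor genes Drd1 and Drd2 lay between 9.54 and 10.31 and between 11.21 and 11.88, and Ppp1r1b, encoding DARPP-32, between 11.80 and 12.39. The cortical marker Slc17a7, a vesicular glutamate transporter gene, ran more widely, between 7.16 and 12.16.

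Ttr encodes transthyretin, the thyroid hormone and retinol carrier that choroid plexus epithelium secretes in bulk. Its values were 5.86, 6.29 and 8.83 on 30C replicates 1 to 3. In 30W they were 5.86, 6.23 and 10.20, in 1C 8.84, 6.46 and 6.12, in 1W 5.79, 6.79 and 5.55, and in Sal 6.64, 5.99 and 6.42. A single array therefore stood high in each of the groups 30C, 30W and 1C, while no 1W or Sal array exceeded 6.79. From the lowest array, 1W replicate 3, to the highest, 30W replicate 3, the range was 4.65 log2 units, or 25.2-fold. On 30W replicate 3 the Ttr value lay above 92.3% of the probe sets of that array, and on 1C replicate 1 and 30C replicate 3 above 78.5% and 78.8%. On the remaining 12 arrays it lay above 25.8% to 47.9% of probe sets, which is the dim part of the array's range.

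Within groups Ttr was the most variable of the 11778 genes tested, with a residual SD of 1.49 log2 units, against a median of 0.087 over all genes. Slc17a7 came next at 1.45. The other members spread far less, with residual SDs of 0.19 for Aqp1, 0.16 for Kl, 0.10 for Foxj1 and 0.094 for Slc4a5. Aqp1 and Kl were still more variable than 93.8% and 89.9% of genes, and Foxj1 and Slc4a5 than 63.2% and 57.1%.

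**Figure D1:**
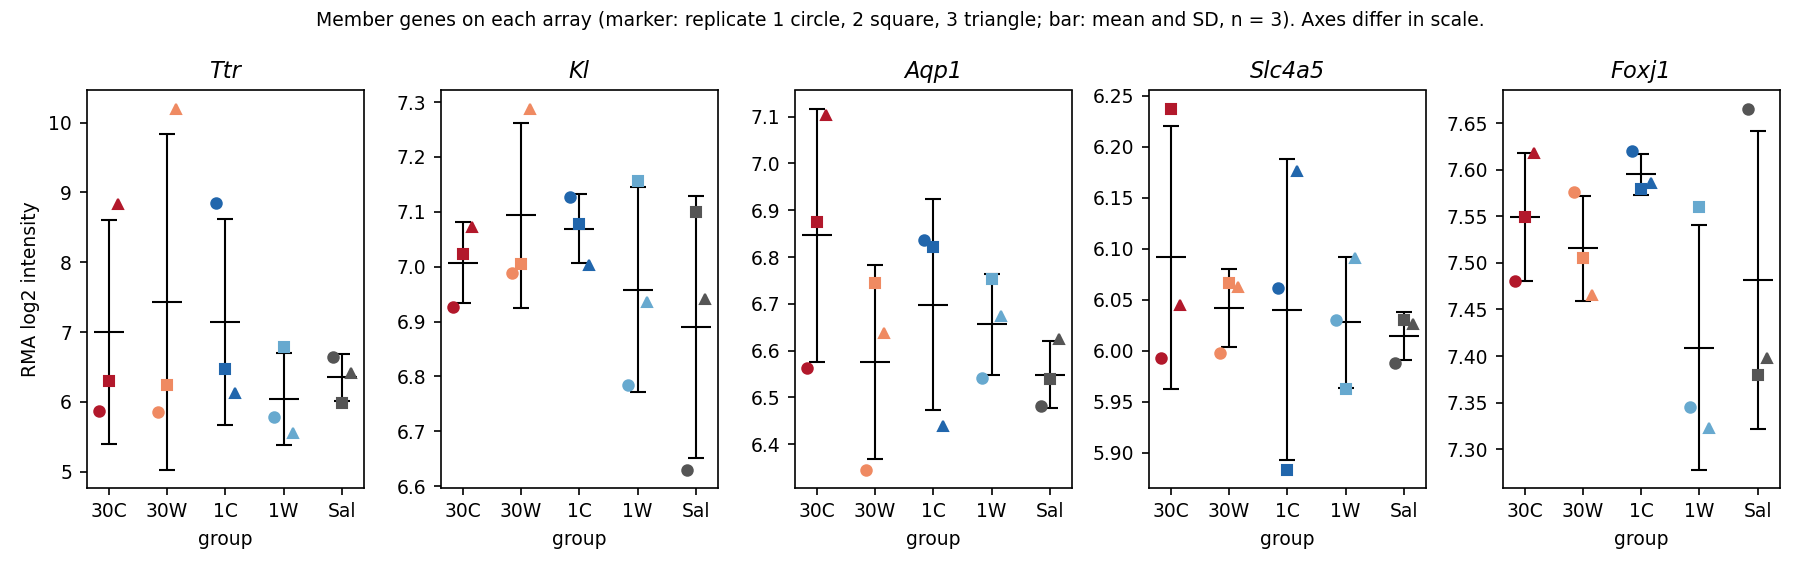
RMA log2 intensity (y axis, a separate scale per gene) of the 5 measured members on each of 15 arrays, by group (x axis). Markers are replicates 1 (circle), 2 (square) and 3 (triangle), and bars are the mean and SD (n = 3); 1 array each of 30C, 30W and 1C stands above 8.8 for Ttr.

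Kl encodes klotho, the co-receptor for the hormone FGF23, made in the kidney and, in brain, largely in the choroid plexus. It was at 6.93, 7.02 and 7.07 in 30C, 6.99, 7.00 and 7.29 in 30W, 7.13, 7.08 and 7.00 in 1C, 6.78, 7.16 and 6.93 in 1W, and 6.63, 7.10 and 6.94 in Sal. Its highest array was 30W replicate 3, as for Ttr, but 1W replicate 2 was close behind and the groups overlapped. Its lowest array was Sal replicate 1.

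Aqp1 encodes the water channel of the apical membrane of choroid plexus epithelium. It was at 6.56, 6.87 and 7.10 in 30C, 6.35, 6.74 and 6.64 in 30W, 6.84, 6.82 and 6.44 in 1C, 6.54, 6.75 and 6.67 in 1W, and 6.48, 6.54 and 6.62 in Sal. Here 30C replicate 3 was highest, followed by 30C replicate 2, while 30W replicate 3, the highest array for Ttr, lay at the median of the 15. Slc4a5 encodes an electrogenic sodium bicarbonate cotransporter of the same epithelium. It stayed between 5.88 and 6.24 on all 15 arrays, just above the 30th percentile of the arrays (5.77 to 5.90), and its range of 0.35 was close to the median range of all genes, 0.33. No array or group stood apart for it.

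Foxj1 encodes the forkhead factor that switches on the genes of motile cilia and is the defining ependymal gene among the members. It was at 7.48, 7.55 and 7.62 in 30C, 7.58, 7.50 and 7.47 in 30W, 7.62, 7.58 and 7.59 in 1C, 7.34, 7.56 and 7.32 in 1W, and 7.67, 7.38 and 7.40 in Sal. The range was 0.34 log2 units. The highest array was Sal replicate 1, where Ttr was at 6.64, and 30W replicate 3, with the most Ttr, lay below the Foxj1 median of 7.55.

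Ordered by group mean, Ttr ran 7.43 ± 2.41 in 30W, 7.14 ± 1.48 in 1C, 7.00 ± 1.60 in 30C, 6.35 ± 0.33 in Sal and 6.04 ± 0.66 in 1W (SD, n = 3 each). Kl ran in the order 30W, 1C, 30C, 1W and Sal, between 7.09 ± 0.17 and 6.89 ± 0.24 (SD, n = 3 each). Aqp1 ran in the order 30C, 1C, 1W, 30W and Sal, between 6.85 ± 0.27 and 6.55 ± 0.07 (SD, n = 3 each). Slc4a5 ran 30C, 30W, 1C, 1W and Sal, between 6.09 ± 0.13 and 6.01 ± 0.02 (SD, n = 3 each). Foxj1 ran 1C, 30C, 30W, Sal and 1W, between 7.59 ± 0.02 and 7.41 ± 0.13 (SD, n = 3 each). For all 5 genes, every group overlapped the next one in its order, so no neighbours differed beyond their spread.

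The 8 comparisons of 2 groups were tested in limma over all 11778 genes, with two-sided p-values adjusted by Benjamini-Hochberg within each comparison. At an adjusted p under 0.05, 0 of the 5 members passed in any comparison, where the share of all genes called was 0% in each. At an unadjusted p under 0.05, 1 member passed in 1 comparison, Foxj1 in 1C against 1W, where 4.02% of all genes did so. The groups failed to overlap in that case alone, with 1C above 1W, as they did for 3.57% of all genes in that direction and 4.3% in the other. Elsewhere 0 of the 5 members had groups that did not overlap. The shares of all genes without overlap, higher and lower, were 4.51% and 3.87% in 30C against 30W, 3.82% and 5.87% in 30C against 1C, and 5.53% and 10.5% in 30W against 1W. Against Sal they were 4.3% and 4.11% in 30C, 6.47% and 7.19% in 30W, 3.97% and 3.21% in 1C, and 4.84% and 3.25% in 1W. Foxj1 was higher in 1C by 0.19 (SE 0.08, limma adjusted p = 1), with means of 7.59 in 1C and 7.41 in 1W.

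For Ttr the smallest unadjusted p was that of 30W against 1W, with a log2 difference of 1.39 (SE 1.05, limma adjusted p = 0.69). Without 30W replicate 3 that difference was 0.0060 (SE 0.85), so 1 array carried it. In the same way, 30W against Sal gave 1.08 (SE 1.05), and -0.30 without 30W replicate 3. The comparison of 1C with Sal gave 0.79 (SE 1.05), and -0.055 without 1C replicate 1. The comparison of 30C with Sal gave 0.65 (SE 1.05), and -0.27 without 30C replicate 3. With the test at 30 days, 30C against 30W gave -0.43 (SE 1.05), and 0.95 without 30W replicate 3. At 1 day, 1C against 1W gave 1.10 (SE 1.05), and 0.25 without 1C replicate 1. These comparisons share arrays, so their values are not independent of one another.

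The remaining members gave their smallest unadjusted p in comparisons with Sal. Kl was higher in 30W than in Sal by 0.20 (SE 0.12, limma adjusted p = 0.74), and by 0.07 without Sal replicate 1. Aqp1 was higher in 30C than in Sal by 0.30 (SE 0.14, limma adjusted p = 0.98), and by 0.17 without 30C replicate 3. Slc4a5 was higher in 30C than in Sal by 0.08 (SE 0.07, limma adjusted p = 1.00), and by 0.0042 without 30C replicate 2. Over the 8 comparisons, differences ran from -0.09 to 0.20 for Kl, from -0.08 to 0.30 for Aqp1, from 0.01 to 0.08 for Slc4a5 and from -0.07 to 0.19 for Foxj1.

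The moderated F test over the 5 groups gave limma adjusted p-values between 0.85, for Foxj1, and 1.00, for Slc4a5, and 0% of all genes passed it. At an unadjusted p under 0.05, 0 of the 5 members passed the F test, as 6.96% of all genes did. The interaction, which asks whether the difference with the test changed between 1 and 30 days, was -1.54 (SE 1.48) for Ttr and 0.23 (SE 0.20) for Aqp1. It was -0.20 (SE 0.17) for Kl, -0.15 (SE 0.11) for Foxj1 and 0.04 (SE 0.11) for Slc4a5. In limma none of these 5 passed (adjusted p = 1.00 for each), and 0 of the 5 had an unadjusted p under 0.05, as 3.03% of all genes did.

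**Figure D2:**
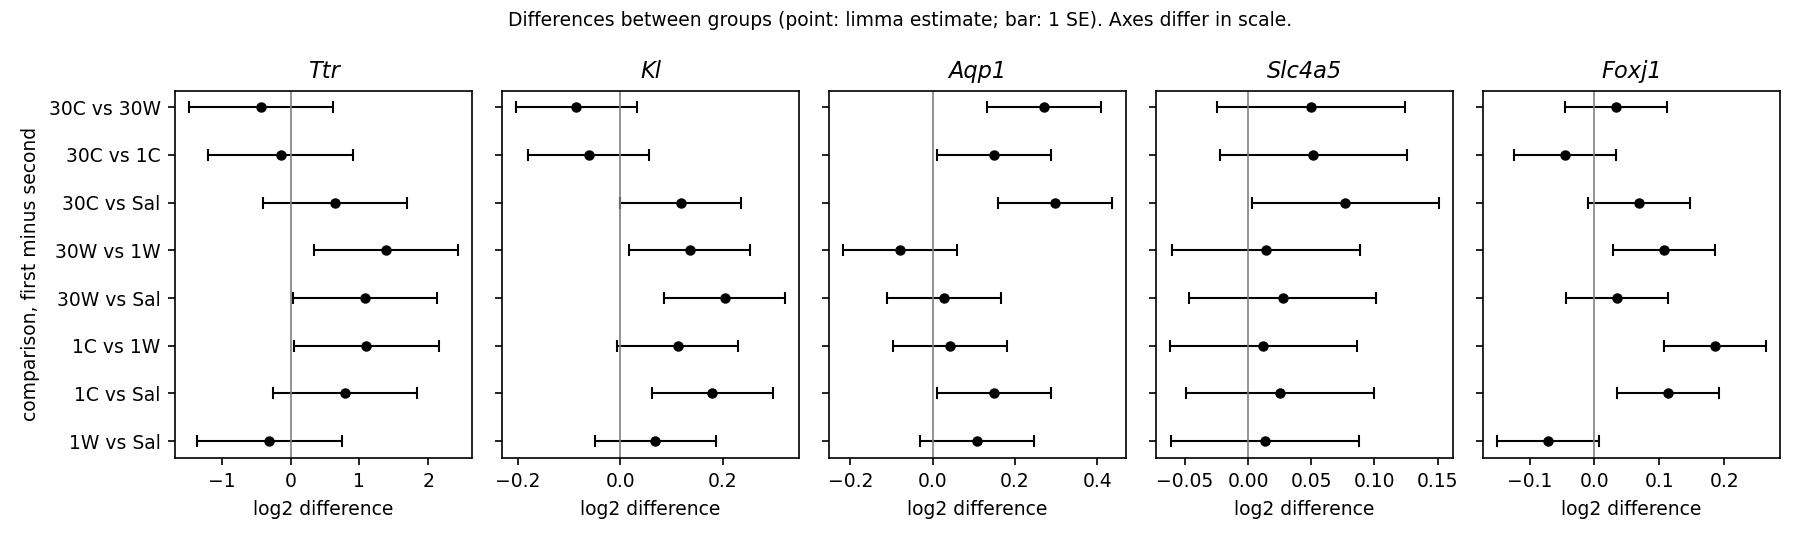
Log2 differences (x axis, a separate scale per gene) of the 5 measured members in the 8 comparisons of 2 groups (y axis, first minus second). Points are limma estimates over 15 arrays and bars are 1 SE; the Ttr bars all have an SE of 1.05 and span most of the panel.

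The genes whose arrays ran most like Ttr included further genes of the choroid plexus. Likeness is given as Pearson's r over the 15 arrays, as a description. For Ttr it rests largely on 3 high arrays, and all genes share the same arrays and normalization. Kcnj13, which encodes the potassium channel Kir7.1 of choroid plexus and retinal pigment epithelium, was first of 11777 genes (r = 0.86, Spearman's rho = 0.28). Mfrp, encoding a membrane frizzled-related protein, was second (r = 0.84, rho = 0.63). Without the 2 arrays farthest from the Ttr median, 30W replicate 3 and 1C replicate 1, r was 0.65 for Kcnj13 and 0.71 for Mfrp. Tapbpl, Tra2a and the apelin receptor gene Aplnr followed (r = 0.78, 0.76 and 0.76).

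Kcnj13 was at 5.43, 5.55 and 6.34 in 30C, 5.78, 5.70 and 6.58 in 30W, 6.66, 5.61 and 5.63 in 1C, 5.70, 5.38 and 5.74 in 1W, and 6.05, 5.63 and 5.52 in Sal. It exceeded the 30th percentile of the array only on 30C replicate 3, 30W replicate 3, 1C replicate 1 and Sal replicate 1. Without the arrays high for Ttr, Kcnj13 would not have passed the filter on low values. Mfrp was at 6.53, 6.53 and 6.76 in 30C, 6.50, 6.60 and 6.78 in 30W, 6.78, 6.41 and 6.34 in 1C, 6.42, 6.54 and 6.42 in 1W, and 6.54, 6.36 and 6.36 in Sal. For both genes the 3 highest arrays were those of Ttr, namely 30C replicate 3, 30W replicate 3 and 1C replicate 1. The same 3 arrays were highest for 33 of 11777 genes (0.28%), and for 4 of 37 genes of a wider choroid plexus list (10.8%). These 4 were Kcnj13, Slc13a4, a sodium sulphate cotransporter gene, Igfbp2, which encodes an insulin-like growth factor binding protein, and Tmem72. For 0 of the 42 ependymal and motile cilia genes were these the 3 highest arrays.

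The promoters of Ttr and of the 2 genes whose arrays ran most like it are shown with those of Drc12 and Hydin, of the cilia pattern described next. Drc12 and Hydin were picked after the search because each holds a motif match. Each runs 5′ to 3′ from 250 bases before to 50 after the start of the gene in RefSeq on GRCr8. Capitals mark a match to TAATCC, the core bound by Otx2-type homeodomains, to TGTTTAC, a forkhead core, or to GTTGCC, the half-site bound by RFX factors of ciliated cells, on either strand. No 2 of the matches shown overlap. Ttr lies at chr18:12218508-12218807, plus strand, and Kcnj13 at chr9:95518937-95519236, minus strand. Mfrp lies at chr8:53342284-53342583, plus strand, Drc12 at chr8:53474409-53474708, plus strand, and Hydin at chr19:55146216-55146515, plus strand.
Ttr: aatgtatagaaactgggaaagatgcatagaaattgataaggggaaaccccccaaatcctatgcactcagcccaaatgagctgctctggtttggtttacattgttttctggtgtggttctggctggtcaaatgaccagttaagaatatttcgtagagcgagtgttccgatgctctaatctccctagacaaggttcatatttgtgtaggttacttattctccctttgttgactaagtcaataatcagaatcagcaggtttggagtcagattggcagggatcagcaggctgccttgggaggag
Kcnj13: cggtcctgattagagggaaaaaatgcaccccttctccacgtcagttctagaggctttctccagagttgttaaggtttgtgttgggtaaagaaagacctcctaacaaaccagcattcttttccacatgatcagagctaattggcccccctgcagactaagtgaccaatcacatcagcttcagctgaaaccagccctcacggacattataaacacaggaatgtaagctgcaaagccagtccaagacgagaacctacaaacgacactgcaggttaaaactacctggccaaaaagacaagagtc
Mfrp: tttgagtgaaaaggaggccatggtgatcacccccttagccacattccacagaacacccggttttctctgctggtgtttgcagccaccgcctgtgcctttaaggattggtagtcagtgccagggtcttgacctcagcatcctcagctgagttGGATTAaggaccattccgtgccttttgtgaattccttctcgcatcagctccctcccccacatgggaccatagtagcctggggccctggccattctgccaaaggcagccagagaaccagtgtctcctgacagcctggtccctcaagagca
Drc12: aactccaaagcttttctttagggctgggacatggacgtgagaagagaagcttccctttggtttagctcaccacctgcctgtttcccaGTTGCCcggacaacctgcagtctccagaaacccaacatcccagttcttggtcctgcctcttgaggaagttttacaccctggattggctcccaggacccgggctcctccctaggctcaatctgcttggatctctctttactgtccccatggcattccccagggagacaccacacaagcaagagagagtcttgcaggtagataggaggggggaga
Hydin: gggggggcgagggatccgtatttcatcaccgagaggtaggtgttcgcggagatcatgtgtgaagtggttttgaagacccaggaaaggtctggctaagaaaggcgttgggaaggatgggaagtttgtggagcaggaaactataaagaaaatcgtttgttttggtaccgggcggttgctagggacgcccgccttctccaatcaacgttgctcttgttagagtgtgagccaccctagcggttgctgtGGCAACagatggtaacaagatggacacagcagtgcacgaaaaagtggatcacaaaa

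In these windows Mfrp held 1 TAATCC, read on the opposite strand at base -99 from the start of the gene. Ttr and Kcnj13 held none of the 3 motifs. TAATCC occurred in 7.11% of 27457 rat promoters and in 2 of 29 choroid plexus promoters (6.9%). Drc12 and Hydin each held 1 GTTGCC, at bases -163 and -6 from the start of the gene, in Hydin on the opposite strand. Capsl and the member Aqp1 also held 1 each, at bases -191 and -244. Ak7, Cfap126 and Dnai3, of the same cilia pattern, and the members Kl and Slc4a5 held none of the 3 motifs. GTTGCC occurred in 16 of 35 promoters of the ependymal and motile cilia genes (45.7%) and in 12.2% of all promoters. TGTTTAC occurred in 1 of the same 35 (2.86%) and in 3.76% of all promoters. A match of letters is a description of the window and not a measured binding site.

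Foxj1 ran with the genes of motile cilia. Its 5 most similar genes were P2rx6, a purinergic receptor gene (r = 0.92, rho = 0.94), Ak7, an adenylate kinase gene of cilia (r = 0.91, rho = 0.95), Cfap126, a cilia and flagella protein gene (r = 0.90, rho = 0.93), C3h20orf96 (r = 0.89, rho = 0.91) and Itgb4, an integrin gene (r = 0.89, rho = 0.92). Without the 2 arrays farthest from the Foxj1 median, 1W replicates 1 and 3, r stayed between 0.80 and 0.93. Of the 41 other tested genes of the ependymal and motile cilia list, 34 had r above 0.5 with Foxj1, against 429 of 11777 genes. With Ttr, 0 of 41 had r above 0.5, against 253 of 11777 genes and 7 of 37 choroid plexus genes. The median r with Ttr was 0.18 for the cilia genes, 0.16 for the choroid plexus genes and 0.02 for all genes.

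Several cilia genes had wider ranges over the arrays than Foxj1. Capsl, a calcyphosine-like gene, had the widest range of the list at 2.82 log2 units (7.07-fold). It was at 4.14, 4.11 and 5.34 in 30C, 5.16, 4.13 and 4.06 in 30W, 5.92, 4.92 and 5.97 in 1C, 3.77, 5.25 and 3.68 in 1W, and 6.50, 3.98 and 4.37 in Sal. Capsl exceeded the 30th percentile of the array only on Sal replicate 1 and 1C replicates 1 and 3. It thus passed the filter on low values only through the arrays where it was high. Cfap126 was at 7.62, 7.97 and 8.57 in 30C, 8.49, 7.78 and 7.48 in 30W, 8.91, 8.41 and 9.03 in 1C, 7.22, 8.50 and 7.25 in 1W, and 9.08, 7.69 and 7.79 in Sal. Both genes were highest on Sal replicate 1 and, next, on 1C replicates 3 and 1, and lowest on 1W replicates 1 and 3. Dnai3, an axonemal dynein gene, Drc12, of the nexin-dynein regulatory complex, and Hydin, of the central pair of the cilium, had ranges of 1.63, 1.52 and 1.39.

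Over the 42 tested cilia genes, 22 were highest on Sal replicate 1, 8 on 1C replicate 1 and 8 on 1C replicate 3. The lowest array was 1W replicate 1 for 12 genes and 1W replicate 3 for 11. On 30W replicate 3, where Ttr peaked, 0 were highest and 7 were lowest. Ttr and most cilia genes thus peaked on different arrays, although 1C replicate 1 was high for both. On 30C replicate 3, also high for Ttr, Foxj1 was at 7.62, its highest value after Sal replicate 1 and 1C replicate 1. The same 3 arrays were highest for 5 of the 41 other cilia genes (12.2%) and 113 of 11777 genes (0.959%). The lowest arrays of Ttr, 1W replicates 3 and 1, were also the ones lowest for the most cilia genes.

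**Figure D3:**
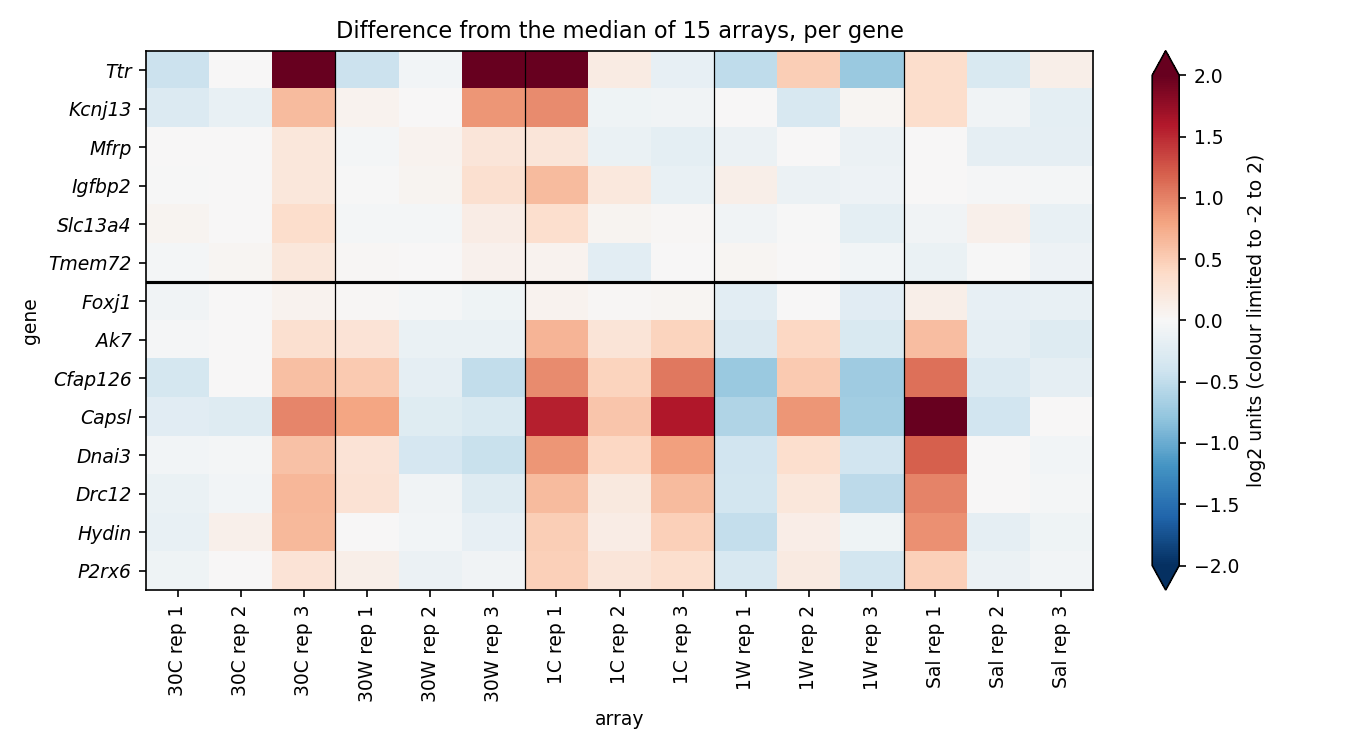
Difference of each gene from its own median over 15 arrays, in log2 units (colour, limited to -2 to 2). Genes sharing the Ttr pattern are above the line. Below it are Foxj1, cilia genes and P2rx6, a receptor gene shown as the one most like Foxj1. Columns are arrays by group; Ttr exceeds the colour limit on 30C replicate 3, 30W replicate 3 and 1C replicate 1, and the cilia genes are high on Sal replicate 1 and 1C replicates 1 and 3.

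The mean deviation of the 41 cilia genes other than Foxj1, each from its mean over 15 arrays, was -0.10, -0.12 and 0.14 in 30C, 0.05, -0.11 and -0.20 in 30W, 0.32, 0.06 and 0.27 in 1C, -0.24, 0.04 and -0.25 in 1W, and 0.40, -0.14 and -0.12 in Sal. Its spread within Sal alone, from -0.14 to 0.40, covered the values of all 1C arrays. The cortical marker score on the same arrays was lowest on Sal replicate 1 (-0.96), and was -0.34 on 1C replicate 1, 0.01 on 1C replicate 3 and -0.42 on 1W replicate 3. On the Ttr-high arrays 30C replicate 3, 30W replicate 3 and 1C replicate 1 it was -0.51, -0.0017 and -0.34. The part of cortical tissue in either pattern was not tested beyond the covariate fit given in the closing section.

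**Figure D4:**
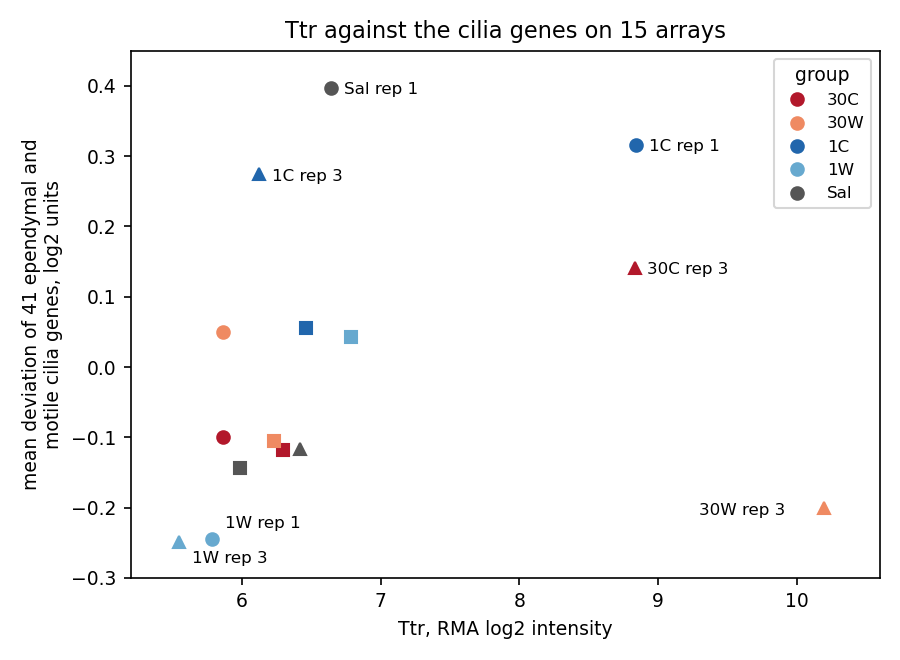
Ttr log2 intensity (x axis) against the mean deviation of 41 ependymal and motile cilia genes in log2 units (y axis) on 15 arrays, coloured by group, with replicates 1, 2 and 3 as circle, square and triangle. The highest Ttr array, 30W replicate 3, lies at -0.20 for the cilia genes, and the highest cilia array, Sal replicate 1, at 6.64 for Ttr.

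The wider cilia list leaned one way in several comparisons, and had the most genes past the unadjusted threshold in 1C against 1W. In 1C against 1W, 41 of 42 differences were positive, with a median of 0.26 log2 units, against a median of -0.0047 and 47.1% positive over all genes. In limma 0 of 42 passed after adjustment over all genes. Most of these genes ran together over the same arrays, so the counts are not of independent observations. At an unadjusted p under 0.05, 22 of 42 were higher and 0 lower in 1C, where 1.86% of all genes were higher and 2.17% lower. Cfap126 was higher in 1C by 1.12 (SE 0.42) and Capsl by 1.37 (SE 0.62), both with limma adjusted p = 1. All 1W values of Capsl, Rsph1, Dnah12 and Cfap206, which are among the 22, lay below the 30th percentile of their arrays. Like Capsl, Rsph1 and Dnah12 passed the filter on low values only through arrays where they were high. The count is thus not free of the filter. Dnai3 and Drc12 were higher by 0.85 (SE 0.32) and 0.72 (SE 0.29). The count was 11 without 1W replicate 1, 8 without 1W replicate 3, 12 without 1C replicate 1 and 9 without 1C replicate 3. Markers of other cell types also passed the unadjusted threshold in the same comparison, though 0 passed after adjustment. Of 18 oligodendrocyte markers 13 were lower at an unadjusted p under 0.05, and of 16 markers of subventricular neuroblasts and dividing cells 4 were higher. Of 31 meningeal and fibroblast markers 5 were higher and 0 lower, of 17 microglial markers 3 were lower and 0 higher, and of 20 endothelial and mural markers 1 was lower and 0 higher. Of the markers of medium spiny neurons, cortical projection neurons, astrocytes and blood, 0 passed in either direction. Their part in the cilia result was not tested.

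Set against the Sal mean, the 2 groups 1C and 1W lay on opposite sides. That mean rests largely on Sal replicate 1, as the Sal cilia scores were 0.40, -0.14 and -0.12. The 1W scores of -0.24, 0.04 and -0.25 lay on both sides of those of Sal replicates 2 and 3. The counts against Sal below were not repeated without Sal replicate 1. In 1C against Sal 39 of 42 cilia genes were positive (median 0.13) with 3 higher and 0 lower by the unadjusted threshold, where 2.1% of all genes were higher and 1.33% lower. In 1W against Sal 5 of 42 were positive (median -0.17) with 6 lower and 0 higher, where 2.09% of all genes were lower and 2.78% higher. Among these Vwa3a was lower in 1W by 0.51 (SE 0.12) with limma adjusted p = 0.56. In 30C against 30W 33 of 42 were positive (median 0.06) and by the same threshold 1 was higher and 0 lower, where 2.11% of all genes were higher and 1.82% lower. In 30C against 1C 3 of 42 were positive (median -0.16) and 4 were lower and 0 higher, where 3.07% of all genes were lower and 2.41% higher. In 30W against 1W 29 of 42 were positive (median 0.07), with 1 higher and 0 lower, where 4.19% of all genes were higher and 5.9% lower. In 30W against Sal 6 of 42 were positive (median -0.09), with 2 lower and 1 higher, where 3.35% of all genes were lower and 4.25% higher. In 30C against Sal 10 of 42 were positive (median -0.06) and 0 passed in either direction, where 2.12% of all genes were lower and 2.94% higher. The interaction of test and withdrawal time was positive for 2 of 42 (median -0.22). At an unadjusted p under 0.05, 3 were lower and 0 higher, where 1.43% of all genes were lower and 1.6% higher, and in limma 0 passed after adjustment.

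The wider choroid plexus list had medians near 0 in every comparison. Of its 53 genes 46 had a probe set and 38 were tested, and 0 passed after adjustment over all genes in any comparison. Medians ran from -0.04, in 30C against 30W, to 0.05, in 30W against Sal, where the medians of all genes were 0.0041 and -0.011. Of the 38, 22 were positive in 30C against Sal, 25 in 30W, 28 in 1C and 22 in 1W. Over all genes 46.8%, 44.4%, 54.5% and 57.7% were positive there, so the list had the larger share in each, though barely so in 1W. Between cocaine groups 16 were positive in 30C against 30W and 15 in 30C against 1C. In 30W against 1W and in 1C against 1W 23 were positive in each. Over all genes 52.4%, 44.3%, 39.7% and 47.1% were positive in these. The list had the larger share in both comparisons with 1W and the smaller share in the others. At an unadjusted p under 0.05 the counts were 1 higher in 30C against Sal, 2 higher in 30W against Sal, 2 higher in 1C against Sal and 1 higher in 1W against Sal. Between cocaine groups they were 1 lower in 30C against 30W, 0 in 30C against 1C, 3 higher and 2 lower in 30W against 1W, and 1 in each direction in 1C against 1W. The shares of all genes in either direction were 5.06% in 30C, 7.6% in 30W, 3.43% in 1C and 4.87% in 1W against Sal. Between cocaine groups they were 3.93% in 30C against 30W, 5.48% in 30C against 1C, 10.1% in 30W against 1W and 4.02% in 1C against 1W. Sostdc1, which encodes a secreted BMP and Wnt antagonist and is named after its values were seen, was higher than Sal in 30C by 0.25 (SE 0.11), in 30W by 0.27 (SE 0.11), in 1C by 0.28 (SE 0.11) and in 1W by 0.14 (SE 0.11). Of these 4 differences 0 passed in limma (adjusted p = 0.95, 0.57, 1.00 and 1.00), the first 3 were past the unadjusted threshold, and all 4 share the Sal arrays. The genes with the widest ranges after Ttr were Lbp, Kcnj13, Slc29a4 and Igfbp2, at 1.29, 1.27, 0.87 and 0.78. The probe sets with the highest means on the list, Enpp2, Car12 and Slc4a10, at 10.92, 10.71 and 10.05, had ranges of 0.44, 0.72 and 0.28. They were thus high also on the arrays where Ttr was dim, so the list median need not follow Ttr. Which cells gave the signal of these genes was not tested.

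**Figure D5:**
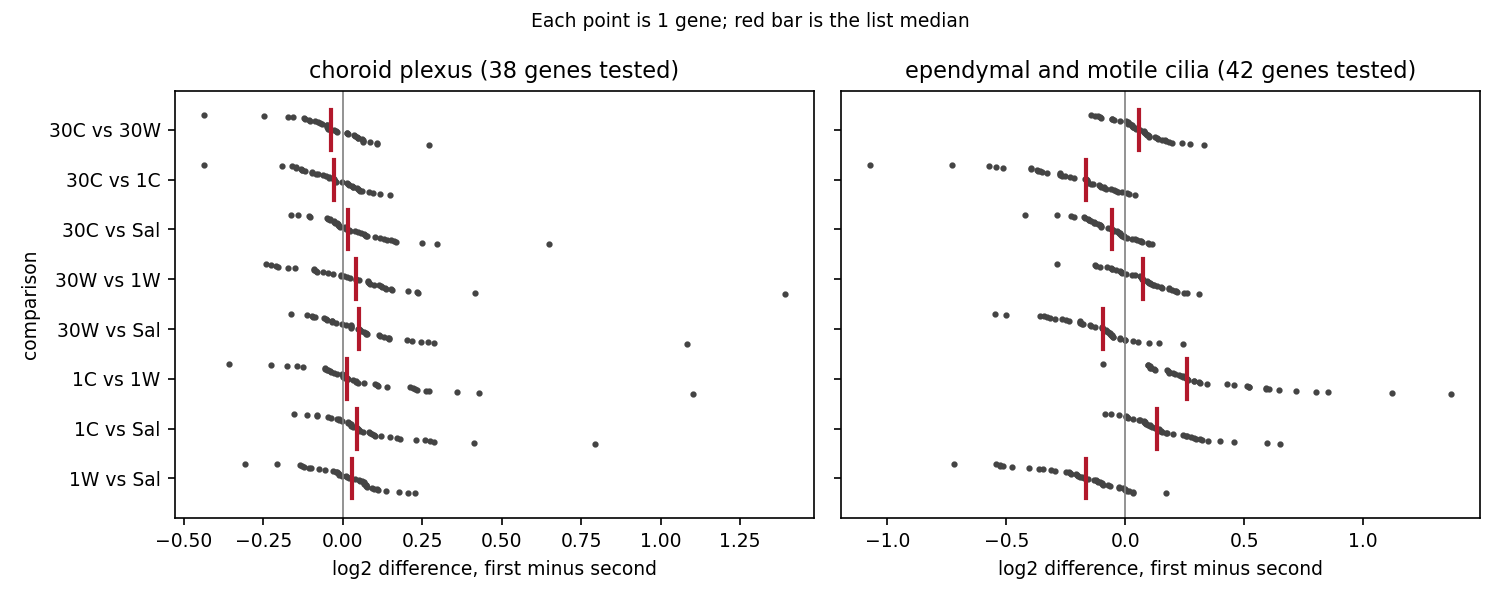
Log2 differences (x axis, first minus second) of each tested gene of the wider choroid plexus list (38 genes) and the ependymal and motile cilia list (42 genes) in the 8 comparisons (y axis). Each point is 1 gene and the red bar is the median, which for the cilia genes is 0.26 in 1C against 1W and -0.17 in 1W against Sal. Sal replicate 1 was the highest array for 22 of the 42 cilia genes and raises their Sal means.

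Among the members themselves likeness varied with the arrays included. Ttr and Kl had r = 0.58 (rho = 0.64) over the 15 arrays, and r = 0.24 without 30W replicate 3 and 1C replicate 1. Ttr and Aqp1 had r = 0.47 (rho = 0.52), and r = 0.71 without the same 2 arrays. Ttr and Foxj1 had r = 0.34 (rho = 0.56), and r = 0.54 without them. Kl and Foxj1 had r = 0.04 (rho = 0.15), and r = 0.63 without Sal replicate 1 and 30W replicate 3. Kl and Aqp1 had r = 0.40 (rho = 0.50), and r = 0.44 without those 2 arrays. Aqp1 and Foxj1 had r = 0.22 (rho = 0.16), and r = 0.21 without 30C replicate 3 and 30W replicate 1. Over all arrays Slc4a5 had r between -0.08 and 0.08 with each of the others. These are descriptions over 15 arrays that share 1 normalization. The genes most like Kl and Aqp1 were Gpr135 (r = 0.90) and Gpr4 (r = 0.82), both encoding G protein-coupled receptors, and the gene most like Slc4a5 was Crb3, a polarity protein gene (r = 0.83).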

How the data were processed

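RNA of 15 samples was measured on Affymetrix rat arrays, 1 array each. Values are log2, as deposited by the authors, and RMA is the tool named in the submitters' processing notes, with its software, version and filters not given in the sources used here. RMA subtracts background, quantile-normalizes and combines the probes of a set, which compresses differences of dim probe sets. Of 28826 probe sets 15209 had 1 gene symbol in the platform annotation, 306 several and 13311 none.

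Each of 14497 genes was represented by its probe set with the highest mean. The 11778 above the 30th percentile on at least 3 arrays were fitted in 1 model with limma 3.58.1 (R 4.3.3), with 5 groups as the only term. The fit was tested on simulated data with independent normal noise for each gene. In 30C against 30W it recovered 86.8% of differences of 0.5 and 98% of differences of 1 log2 unit. On average 10.3 unchanged genes were called. The simulation held no single-array peaks and no genes that move together, so it says nothing about those. Threshold: adjusted p under 0.05 (Benjamini-Hochberg). Groups come from the sample titles. Exact tests of 3 against 3 arrays cannot go below p = 0.1 and were not used.

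The members and gene lists were chosen with earlier results of these data known. Each member was given its comparison with the smallest p, its 5 most similar genes, and per list the 5 widest ranges and 3 highest means. List genes were matched by symbol or, for 5 cilia genes, through the Entrez ID to RefSeq (GRCr8). The share of genes with the same 3 highest arrays, the 0.5 limit on r and the unadjusted counts were chosen after values were seen. Promoters are from RefSeq (GRCr8). Of the 42 tested cilia genes 35 had a promoter in that table, and of the 38 choroid plexus genes 29.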

Additional observations from a re-analysis of the deposited data

How the results depend on the processing

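None of the 5 members passed an adjusted p under 0.05 in any comparison under any of the 25 alternatives run. Their named differences kept their direction throughout, and over the alternatives that leave out no array ran from 1.14 to 1.49 for Ttr in 30W against 1W, 0.11 to 0.20 for Kl in 30W against Sal, 0.27 to 0.38 for Aqp1 and 0.05 to 0.09 for Slc4a5 in 30C against Sal, and 0.14 to 0.19 for Foxj1 in 1C against 1W. The stricter filter left no value for Aqp1 and Slc4a5. With each array left out in turn the ranges were 0.0060 to 2.18 for Ttr, 0.07 to 0.31 for Kl, 0.17 to 0.44 for Aqp1, 0.0042 to 0.13 for Slc4a5 and 0.14 to 0.26 for Foxj1. In the same fits, chosen after seeing the data, Ttr ran from -0.055 to 1.30 in 1C against Sal, -0.30 to 1.87 in 30W against Sal, -0.27 to 1.21 in 30C against Sal, -1.06 to 0.70 in 30C against 1C (0.42 and 0.20 the other 2 positive ones), -1.35 to 0.95 in 30C against 30W (0.13 the other positive one), 0.25 to 1.61 in 1C against 1W and -0.68 to -0.06 in 1W against Sal. The counts of genes called in the 10 tests were 0 in 233 of 248 alternative values. Array weights gave 3 in 30W against 1W, 2 in 30C against 1C and 1 in 30C against 30W, and the cortical covariate 1 in 30C against 1C, 1 in 30C against 30W and 1 in the F test. Leaving out 1 array gave 0 to 2 in 30C against 1C and in the F test, and 0 to 1 in 1C against Sal, 30W against 1W, 1C against 1W and 30C against 30W. The count of cilia genes higher in 1C than in 1W, 22 of 42, was 8 of 18 under the stricter filter, which tests fewer genes, between 19 and 30 under the other alternatives that leave out no array, 30 of them with the cortical covariate, and between 8 and 29 with 1 array left out. In the replicate block fit it was 23, and 0 genes were called in any comparison. No pairing of arrays by number was seen, though 3 arrays per group cannot exclude it. Deviations of same-numbered arrays in different groups correlated between -0.625 and 0.507, with 10 of 30 pairs over 0.1. Those of differently numbered arrays ran from -0.508 to 0.598, with 21 of 60 pairs over 0.1. Of 15 arrays 5 were closest to their own number. Where a count or value changed, the cause was not tested.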

Other observations

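Some genes of the wider choroid plexus list peaked on arrays other than those of Ttr. Lbp, which encodes the lipopolysaccharide-binding protein, was at 7.39 on 1C replicate 2 and between 6.09 and 6.29 on the other 14 arrays. Slc29a4, a monoamine transporter gene, was highest on 1W replicate 1 at 8.22 and on Sal replicate 1 at 8.07. Clic6, an intracellular chloride channel gene of the choroid plexus, did not pass the filter on low values. It was at 5.07, 5.24 and 5.69 in 30C, 5.21, 4.73 and 5.52 in 30W, 5.92, 5.16 and 5.60 in 1C, 5.10, 5.52 and 4.93 in 1W, and 6.01, 5.03 and 4.89 in Sal. Clic6 and Cldn2 are named after their values were seen. The highest arrays of Clic6 were Sal replicate 1 and then 1C replicate 1, which was also high for Ttr. Cldn2, a tight junction gene of the same epithelium, also did not pass. Unlike the genes above, it peaked on the highest array of Ttr, 30W replicate 3, at 5.30, with the other arrays between 4.41 and 4.89. All its values lay below the 30th percentile of the arrays (5.77 to 5.90). The other genes of the list that did not pass, Cldn1, F5, Abca4, Calml4, Prlr and Steap1, each peaked on an array that was not high for Ttr.

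Meningeal and fibroblast markers, 31 genes tested, had scores of 0.15 and 0.12 on 1C replicates 1 and 2 and of -0.03 on 1C replicate 3. The score was 0.09 on 30C replicate 3 and 0.02 on 30W replicate 3. In 1C against Sal by the unadjusted threshold of 0.05, 7 of the 31 were higher and 0 lower, where 2.1% of all genes were higher and 1.33% lower. The counts were 5 higher in 1C against 1W, where 1.86% of all genes were, and 1 higher in 1W against Sal, where 2.78% were. They were 2 higher in 30C against Sal (2.94% of all genes), 4 higher and 1 lower in 30W against Sal (4.25% and 3.35%), 2 higher in 30W against 1W (4.19%), 3 lower in 30C against 1C (3.07%) and 2 lower in 30C against 30W (1.82%). In limma 0 of the 31 passed after adjustment in any of these 8 comparisons.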
